A study of Rattus norvegicus with 12 samples.

Results

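Transcript levels of 31 genes that make cholesterol or sense it were followed in the livers of PCK rats and of Sprague Dawley control rats. The members were the enzymes of the mevalonate, isoprenoid, squalene and sterol stages, the SREBP-2 activation machinery, and genes that carry, esterify or take up sterols. They were found by gene symbol in the array table, where Msmo1 stood under its older symbol Sc4mol and Sc5d under Sc5dl. A named row was found for 28 of the 31 among 16592 named genes, and Hmgcs1, Mvk and Npc1l1 were not analysed here.

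The livers came from 6 PCK and 6 control rats, all male and 10 weeks old, fed a standard diet with 19% protein. The labels give the PCK animals as a caesarean-derived Sprague Dawley stock from Charles River Japan with cystic livers, and the controls as healthy Sprague Dawley rats. PCK rats are known to carry a mutation of Pkhd1, the gene of human autosomal recessive polycystic kidney disease, and to grow cysts from the bile ducts. The labels do not call the controls littermates, so the mutation and any other difference between the colonies cannot be told apart. The labels describe the 12 arrays as biological replicates of minced whole liver, and no batch, scan time or litter is given in the sources used here. The number of arrays limits the precision of each value.

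Cholesterol is built from acetyl-CoA in a chain of reactions that ends in the membrane of the endoplasmic reticulum, and the liver is a main site of this synthesis. When that membrane is poor in sterol, the escort protein Scap carries SREBP-2, encoded by Srebf2, to the Golgi, where the proteases of Mbtps1 and Mbtps2 release a fragment that switches on the pathway's genes. Insig1 and Insig2 hold Scap back when sterol is plentiful, and Insig1 is itself a target of the SREBP factors.

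The promoter windows of 4 members are shown because these genes carry the contrasts below: Insig1 and Insig2 are paralogues that differed in opposite directions, Srebf2 encodes the pathway's transcription factor and Fdps is one of its enzymes. Each window runs from 250 bases before to 50 bases after the start that RefSeq gives on build GRCr8, 5′ to 3′ on the strand of the gene. Capitals mark the NF-Y box CCAAT on either strand and, in Fdps and Srebf2, the relaxed sterol element letters TCACNCGA and TCACNCCA.
Insig1, chr4:8057720-8058019, minus strand: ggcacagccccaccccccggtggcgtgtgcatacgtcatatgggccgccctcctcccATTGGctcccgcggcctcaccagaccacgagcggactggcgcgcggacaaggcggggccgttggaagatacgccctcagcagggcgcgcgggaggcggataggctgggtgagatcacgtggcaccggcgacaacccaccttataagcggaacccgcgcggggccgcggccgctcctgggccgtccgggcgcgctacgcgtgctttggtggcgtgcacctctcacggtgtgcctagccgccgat
Insig2, chr13:35040049-35040348, minus strand: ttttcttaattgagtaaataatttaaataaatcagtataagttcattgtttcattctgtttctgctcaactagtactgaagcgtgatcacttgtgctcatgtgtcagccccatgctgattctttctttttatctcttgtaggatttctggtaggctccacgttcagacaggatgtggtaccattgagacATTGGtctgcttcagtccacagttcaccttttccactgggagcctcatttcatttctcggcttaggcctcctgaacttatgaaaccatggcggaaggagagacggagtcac
Fdps, chr2:176804767-176805066, minus strand: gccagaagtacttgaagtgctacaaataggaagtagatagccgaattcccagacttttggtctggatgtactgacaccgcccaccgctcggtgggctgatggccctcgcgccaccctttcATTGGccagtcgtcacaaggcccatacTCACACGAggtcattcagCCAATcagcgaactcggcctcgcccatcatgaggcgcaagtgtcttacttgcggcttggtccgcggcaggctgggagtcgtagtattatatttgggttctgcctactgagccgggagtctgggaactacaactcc
Srebf2, chr7:115543057-115543356, plus strand: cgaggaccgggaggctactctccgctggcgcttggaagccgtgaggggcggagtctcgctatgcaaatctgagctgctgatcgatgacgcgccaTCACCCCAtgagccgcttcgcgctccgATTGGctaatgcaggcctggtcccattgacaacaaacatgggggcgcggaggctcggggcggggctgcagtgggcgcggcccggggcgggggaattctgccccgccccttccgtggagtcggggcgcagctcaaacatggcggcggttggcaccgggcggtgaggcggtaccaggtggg
In the Fdps window TCACACGA began 103 bases before the start, between NF-Y boxes that began 130 and 85 bases before it. The Srebf2 window held TCACCCCA from 156 bases before the start and an NF-Y box from 129 bases before it. Insig1 and Insig2 had an NF-Y box each, 193 and 61 bases before their starts. Whether the liver transcripts begin at these RefSeq starts was not tested, so the boxes may lie outside the promoters in use.

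Most of the measured pathway was higher in PCK livers. Of the 28 genes, 17 were higher and 1 was lower at a limma adjusted p under 0.05, where 17.4% of all genes were higher and 21.0% lower. Calls are more frequent among bright genes, and 25 members lie above the median mean signal. In a fit of only the 8297 genes above it, 2034 were higher, among them 16 of those 25. For 16 genes every PCK value lay above every control value, as for 11.0% of all genes, and for Insig2 every PCK value lay below, as for 10.6%. The median difference of the 28 was 0.37 on the log2 scale, against -0.0067 over all genes. Of the 28, 11 passed and were at least 1.5-fold higher, as were 2.68% of all genes. Insig1 and Pmvk passed and were at least 2-fold higher, as were 1.01% of all genes. All differences below are PCK minus control in log2 signal, and because whole liver was measured, fewer cells of a type and less RNA per cell cannot be told apart.

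**Figure D1:**
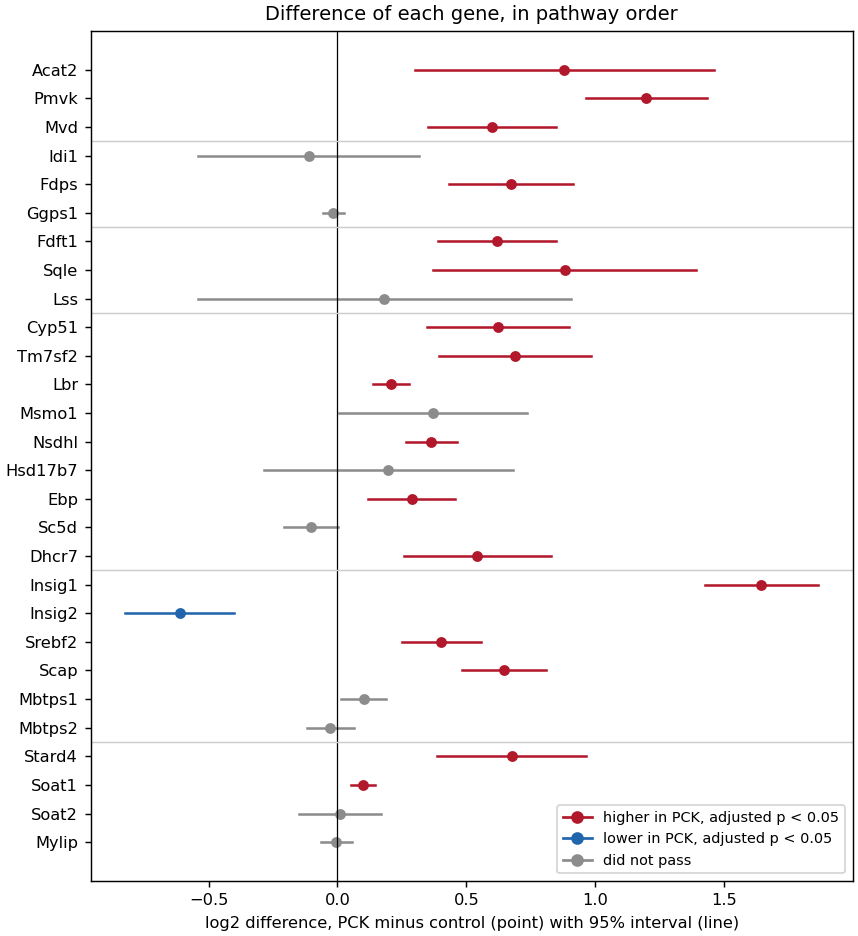
Log2 difference, PCK minus control (point), with its 95% interval from limma (line), for the 28 measured genes from the first enzyme at the top to sterol handling genes at the bottom, with grey lines between stages. Insig1 stands furthest to the right at 1.64 and Insig2 furthest to the left at -0.61, and 17 genes are coloured as higher in PCK livers.

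All 3 measured enzymes of the mevalonate stage rose. Pmvk, phosphomevalonate kinase, ranged from 7.62 to 8.06 with a median of 7.95 in PCK livers, and from 6.42 to 7.01 with a median of 6.73 in control livers. The groups did not overlap and differed by 1.20 ± 0.11 (log2, SE; limma adjusted p = 8.90e-06), or 2.29-fold. Mvd, which makes isopentenyl diphosphate, ran from 6.54 to 7.26 (median 6.94) in PCK livers and from 6.16 to 6.51 (median 6.31) in control livers. Its groups were separated by a narrow gap and differed by 0.60 ± 0.11 (limma adjusted p = 0.00154). Acat2, the cytosolic thiolase that joins acetyl-CoA units, spanned 8.89 to 9.77 (median 9.24) in PCK livers and 7.30 to 8.87 (median 8.64) in control livers. PCK 6, the lowest of its group, was just above control 2, the highest control, and the difference of 0.88 ± 0.26 (limma adjusted p = 0.0210) had a wide interval, 0.30 to 1.46.

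The isoprenoid stage was divided. Fdps, which builds farnesyl diphosphate for sterols and for protein prenylation, ran from 12.43 to 12.65 (median 12.58) in PCK livers, against 11.40 to 12.17 (median 11.92) in control livers. The groups did not overlap and differed by 0.67 ± 0.11 (log2, SE; limma adjusted p = 0.000586). Idi1, the isomerase just before it, did not pass, at -0.11 ± 0.20 (adjusted p = 0.703), and its interval ran from -0.54 to 0.32. Idi1 values ran from 7.99 to 8.85 in PCK livers and from 7.77 to 8.82 in control livers, so the groups covered almost the same range. Ggps1, which makes geranylgeranyl diphosphate for prenylation, was at 5.56 ± 0.032 in PCK and 5.57 ± 0.032 in control livers (log2, SD, n = 6 each). That level lies below the table's median of 5.66, a range in which the table offers no means to separate signal from background, so Ggps1 says little in either direction.

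In the squalene stage the first enzymes rose and the cyclase did not pass. Fdft1, squalene synthase and the first step committed to sterols, ran from 12.04 to 12.25 (median 12.16) in PCK livers and from 11.17 to 11.76 (median 11.67) in control livers. It was higher by 0.62 ± 0.10 (log2, SE; limma adjusted p = 0.000749), with no overlap. Sqle, squalene epoxidase, which adds the oxygen needed for ring closure, spanned 8.32 to 9.01 (median 8.42) in PCK livers and 6.80 to 8.12 (median 7.86) in control livers. Its difference was 0.88 ± 0.23 (limma adjusted p = 0.0109), and controls 5 and 6 were lowest, at 6.80 and 7.18. Lss, lanosterol synthase, ran from 9.28 to 9.81 (median 9.57) in PCK livers, inside the control range of 7.93 to 10.27 (median 9.35). Controls 2 and 4 exceeded every PCK liver while control 6 was far below, and the difference of 0.18 ± 0.33 did not pass (adjusted p = 0.712). Without control 6 the Lss difference was -0.11 ± 0.20.

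**Figure D2:**
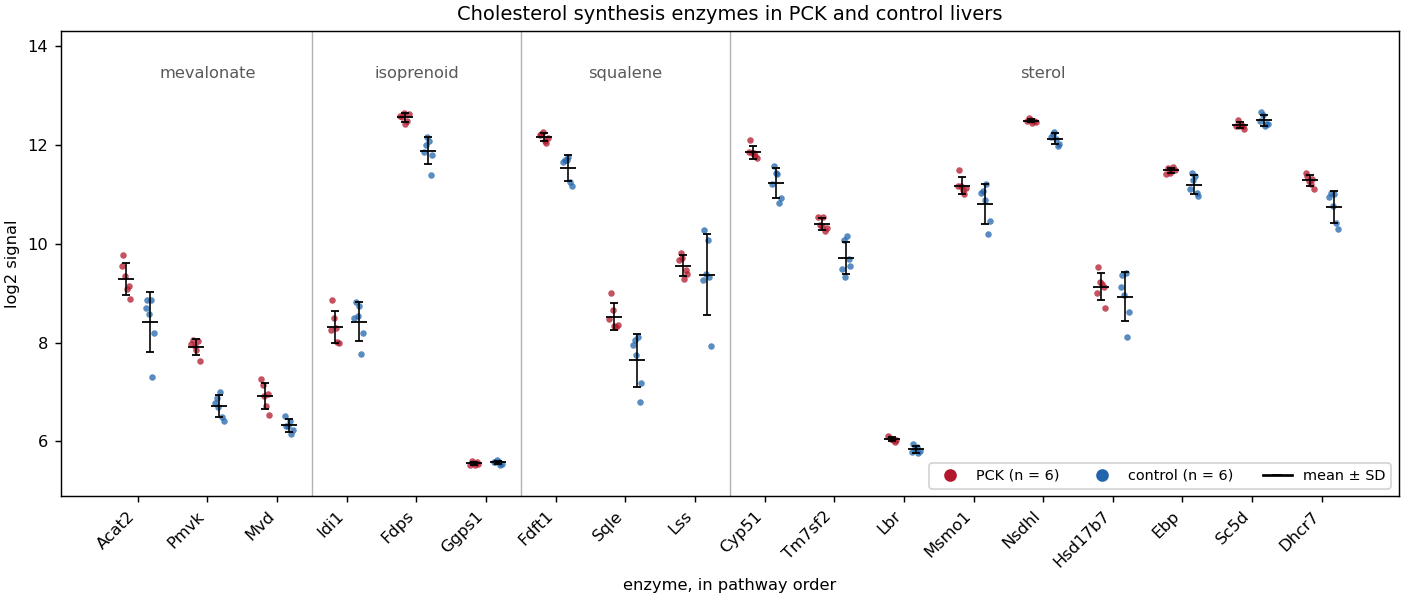
Log2 signal of the 18 measured enzymes in each of 6 PCK livers (red, left of each pair) and 6 control livers (blue, right), in pathway order, with black bars for the mean ± SD and grey lines between stages. PCK points of 11 enzymes lie above all control points, and the control points are more spread than the PCK points for 17 enzymes.

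Of the 9 measured enzymes that turn lanosterol into cholesterol, 6 rose and none fell. Cyp51, the P450 that removes the methyl group at carbon 14 of lanosterol, ran from 11.73 to 12.10 (median 11.83) in PCK livers and from 10.83 to 11.58 (median 11.31) in control livers, a difference of 0.62 ± 0.13 (log2, SE; limma adjusted p = 0.00241). The next step, reduction of the double bond left by Cyp51, has a pair of enzymes, Tm7sf2 and Lbr, and both were higher. Tm7sf2 was at 10.26 to 10.55 (median 10.38) in PCK livers and 9.33 to 10.15 (median 9.63) in control livers, a difference of 0.69 ± 0.13 (adjusted p = 0.00195). Lbr, which is also the lamin B receptor of the nuclear envelope, was at 6.00 to 6.12 in PCK livers and 5.77 to 5.95 in control livers, a small difference of 0.21 ± 0.032 (adjusted p = 0.000362) at a level close to the table's median.

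Of the 6 later sterol enzymes measured, Nsdhl, Ebp and Dhcr7 rose. Nsdhl, the dehydrogenase of the step that removes the methyl groups at carbon 4, ran from 12.45 to 12.55 (median 12.48) in PCK livers and from 11.98 to 12.26 (median 12.13) in control livers. The PCK values were tightly grouped above all controls, and the groups differed by 0.36 ± 0.045 (log2, SE; limma adjusted p = 7.82e-05). Its partners in the same step, the oxidase Msmo1 (0.37 ± 0.17, adjusted p = 0.101) and the reductase Hsd17b7 (0.20 ± 0.22, adjusted p = 0.527), did not pass. Their intervals, 0.0062 to 0.74 for Msmo1 and -0.28 to 0.68 for Hsd17b7, include the size seen for Nsdhl. Without controls 5 and 6, a setting chosen once the values were known, Msmo1 was at 0.13 ± 0.094 (limma adjusted p = 0.327). In that setting Hsd17b7 was at -0.089 and Nsdhl at 0.30.

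Dhcr7, which catalyses the reduction of 7-dehydrocholesterol to cholesterol, ran from 11.11 to 11.42 (median 11.30) in PCK livers and from 10.29 to 11.03 (median 10.85) in control livers. The groups did not overlap and differed by 0.54 ± 0.13 (log2, SE; limma adjusted p = 0.00661). Ebp, the isomerase of the sterol ring, rose by 0.29 ± 0.077 (adjusted p = 0.0119), and its lowest PCK value, 11.42, lay just under the highest control value, 11.44. Sc5d, the desaturase between Ebp and Dhcr7, was at -0.10 ± 0.048 and did not pass (adjusted p = 0.118). Its interval, -0.21 to 0.0034, lies below the differences measured for its neighbours Ebp and Dhcr7, although the difference between enzymes was not tested.

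The sensing genes held the largest rise and the only fall that passed among the members. Insig1 ran from 12.81 to 13.09 (median 12.96) in PCK livers and from 11.00 to 11.63 (median 11.33) in control livers. Every PCK liver exceeded every control liver by more than a log2 unit, and the groups differed by 1.64 ± 0.10 (log2, SE; limma adjusted p = 7.04e-07), or 3.13-fold. Insig2, whose liver transcript is known in rodents to be repressed by insulin, ran the other way, from 11.49 to 11.80 (median 11.59) in PCK livers and from 12.02 to 12.53 (median 12.18) in control livers. Again no values overlapped, and Insig2 fell in PCK livers, at -0.61 ± 0.096 (adjusted p = 0.000436), which is 1.53-fold lower. In controls 5 and 6, where most enzymes were lowest, Insig2 was highest, at 12.53 and 12.48.

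Srebf2 and Scap also rose. Srebf2 ran from 9.34 to 9.62 (median 9.49) in PCK livers and from 8.87 to 9.22 (median 9.12) in control livers, a difference of 0.40 ± 0.069 (log2, SE; limma adjusted p = 0.000854). Scap was at 8.89 to 9.26 (median 9.12) in PCK livers and 8.28 to 8.63 (median 8.42) in control livers, a difference of 0.64 ± 0.074 (adjusted p = 5.20e-05). For both genes the lowest PCK liver lay above the highest control liver. The proteases that release SREBP-2 did not pass: Mbtps1 was at 0.10 ± 0.039 (adjusted p = 0.0610) and Mbtps2 at -0.028 ± 0.041 (adjusted p = 0.645), with intervals of 0.016 to 0.19 and -0.12 to 0.063. Mbtps1 passed under 5 of 21 other settings, with adjusted p from 0.00920 to 0.132.

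**Figure D3:**
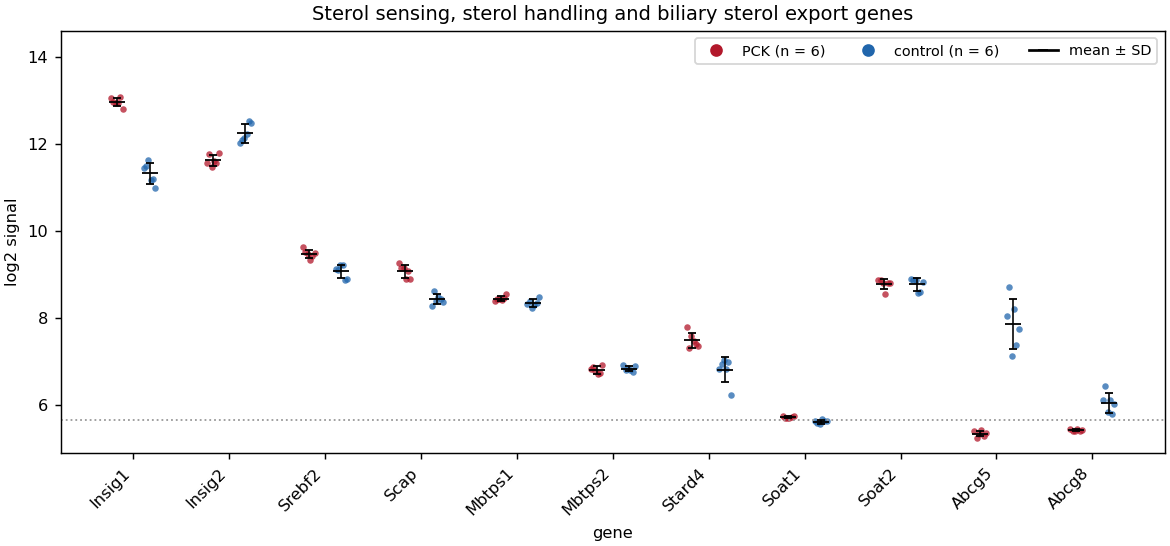
Log2 signal of sterol sensing genes (Insig1 to Mbtps2), sterol handling genes (Stard4 to Soat2) and the biliary sterol exporter genes Abcg5 and Abcg8 in 6 PCK livers (red, left of each pair) and 6 control livers (blue, right), with black bars for the mean ± SD and a dotted line at the table's median of 5.66. Insig1 is higher and Insig2 lower in PCK livers with no overlap, and the PCK values of Abcg5 and Abcg8 lie below the dotted line.

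Of the 4 measured genes that carry, store or regulate the uptake of sterol, Stard4 changed most. Stard4, a soluble carrier that moves cholesterol between membranes, ran from 7.31 to 7.79 (median 7.44) in PCK livers and from 6.24 to 7.04 (median 6.89) in control livers, a rise of 0.68 ± 0.13 (log2, SE; limma adjusted p = 0.00187). Soat2, the sterol acyltransferase of hepatocytes, was at 8.78 ± 0.12 in PCK and 8.77 ± 0.14 in control livers (SD, n = 6 each). The Soat2 difference of 0.010 ± 0.072 did not pass (adjusted p = 0.930), and its interval, -0.15 to 0.17, holds only differences smaller than that of Stard4. Soat1, the acyltransferase of macrophages and other cells, was 0.10 ± 0.021 higher (adjusted p = 0.00302) at a signal around the table's median, 5.72 in PCK and 5.62 in control livers. The control level of Soat1 could not be told from background, so the size of its difference is not exact. Mylip, a ubiquitin ligase that targets the LDL receptor, was at 5.63 in both groups and could not be told from background.

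Animals that were low for 1 enzyme tended to be low for others, most clearly among the controls. Averaged over the 18 enzymes, the log2 level was 9.84 ± 0.12 in PCK livers and 9.39 ± 0.27 in control livers (SD, n = 6 each). PCK animals lay between 9.69 and 10.03, and control animals between 9.02 and 9.66, the lowest being control 5 at 9.02 and control 6 at 9.10. Both of these controls were below their group's mean at 18 of 18 enzymes, and they held the lowest positions together at 14 of 18, as they did at 10.17% of all genes. The exceptions were Lss, Tm7sf2, Lbr and Sc5d. The SD was larger among controls than among PCK livers for 17 of 18 enzymes, against 56.03% of all genes. When controls 5 and 6 were left out, the control SD, then from fewer animals than the PCK SD, was larger for 9 of 18. The share of all genes in that case was 42.86%. Controls 5 and 6 were picked as the lowest at these enzymes, so leaving them out tends to lower the control SD. No PCK livers were left out to match. Srebf2 was lowest in the same animals, at 8.87 in control 5 and 8.91 in control 6.

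Leaving out controls 5 and 6, which was decided on once the values were known, gave 18 genes higher and 1 lower, and a median difference of 0.24 in place of 0.37. The rises of Acat2 (0.55), Sqle (0.55), Dhcr7 (0.35) and Ebp (0.19) shrank by more than 1.5 times in that setting and still passed. Among PCK livers the spread was smaller, with PCK 2 highest at 11 of 18 enzymes and PCK 6 lowest at 8. PCK 6 also had the highest Krt19, at 8.28. Among PCK livers it had the highest summed log2 levels of the bile duct (75.8), macrophage (112.5) and stellate cell (67.8) markers. It also had the lowest sums of the dividing cell (42.1) and hepatocyte (132.3) markers. The hepatocyte sums of PCK livers ran only from 132.3 to 132.9 and say little about hepatocyte content, as described below. The part of these markers in the enzyme levels of PCK 6 was not tested.

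**Figure D4:**
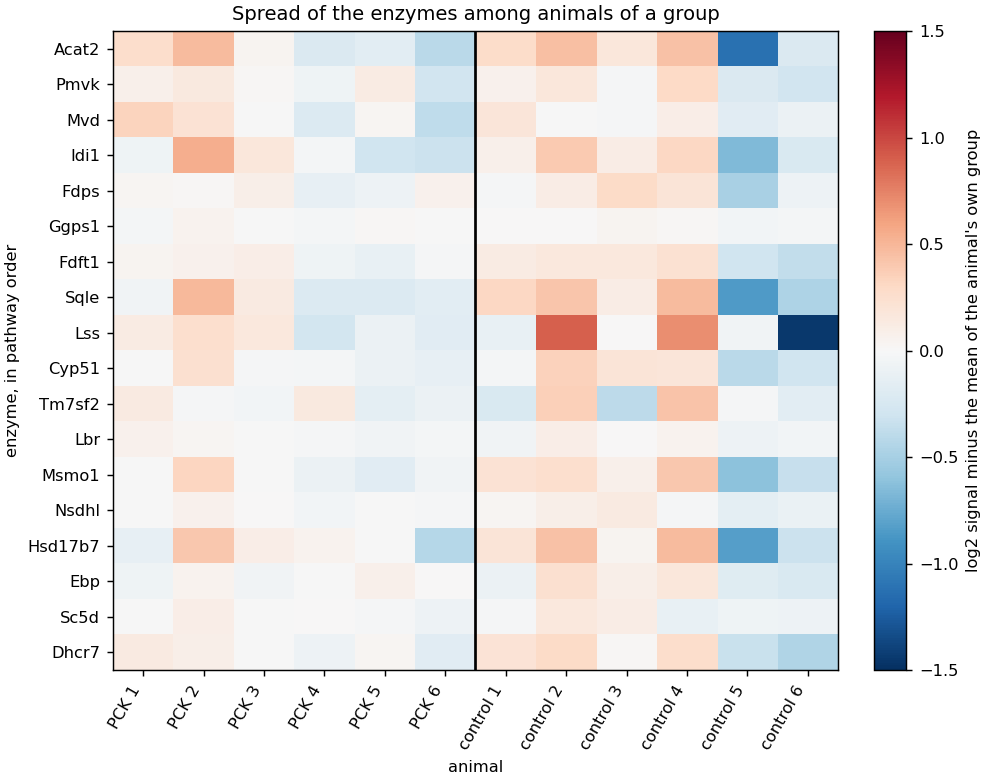
Log2 signal of each of the 18 measured enzymes in each animal minus the mean of that animal's own group, red above and blue below it, with PCK livers left of the black line and control livers right of it. Columns for control 5 and control 6 are below their group's mean at all 18 enzymes, and control 6 is furthest below it for Lss.

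Of 6 electron donors and scaffold proteins of the sterol enzymes, 1 was higher and 3 were lower in PCK livers. For this count and those of the lists and cell markers below, the shares of all genes were 17.4% higher and 21.0% lower. Por, the reductase that feeds electrons to Sqle and to microsomal P450 enzymes such as Cyp51, ran from 8.08 to 8.78 (median 8.28) in PCK livers and from 9.11 to 9.89 (median 9.82) in control livers. The groups were well separated, and Por fell, at -1.33 ± 0.15 (log2, SE; limma adjusted p = 5.20e-05). Cyb5a, the cytochrome b5 that supplies the desaturase and oxidase steps, fell by a smaller amount (-0.36 ± 0.042, adjusted p = 5.35e-05). Erg28, a scaffold for the enzymes acting at carbon 4 in yeast, rose by 0.53 ± 0.082 (adjusted p = 0.000412).

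The branches that leave the mevalonate pathway before squalene were mixed. Of 13 measured genes for dolichol, coenzyme Q and protein prenylation, 3 were higher and 5 lower. Nus1, a subunit of the dolichol-making prenyltransferase, was lower (-0.53 ± 0.057, limma adjusted p = 3.31e-05), as was Rabggta, of the enzyme that prenylates Rab proteins (-0.40), while Fnta, the shared subunit of protein farnesyl and geranylgeranyl transferase, rose by 0.45. Both measured genes of the ketone branch fell, the mitochondrial thiolase Acat1 at -0.87 and the hydroxybutyrate dehydrogenase Bdh1 at -0.33. Of 9 measured genes for degradation and retention of sterol proteins in the endoplasmic reticulum, 2 were higher and 4 lower. Erlin2, which forms a membrane complex with Erlin1, rose by 0.59 ± 0.048 (adjusted p = 4.62e-06), and Erlin1 fell (-0.30), as did the ubiquitin ligase Syvn1 (-0.48).

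Abcg5, a sterol export gene, differed by more than any of the 28 genes. Abcg5 and Abcg8 together form the transporter that moves sterols from hepatocytes into bile, and both are targets of the liver X receptors. Abcg5 ran from 5.25 to 5.42 (median 5.34) in PCK livers and from 7.13 to 8.71 (median 7.89) in control livers. All 6 PCK values lay below the table's median and all 6 controls well above it, and the groups differed by -2.53 ± 0.22 (log2, SE; limma adjusted p = 8.03e-06), whose size is not exact because the PCK level cannot be told from background. Abcg8 was lower too, at 5.40 to 5.45 in PCK livers and 5.79 to 6.43 in control livers, a difference of -0.63 ± 0.090 (adjusted p = 0.000225) whose size is not exact for the same reason. Of the 8 genes listed as liver X receptors and their targets these were the only ones lower, and Lpcat3, a phospholipid acyltransferase, was the only one higher, at 0.33 ± 0.032 (adjusted p = 1.65e-05).

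Of 13 measured genes of sterol transport within the cell, 4 were higher and 4 lower, against 17.4% and 21.0% of all genes. Npc2, the soluble sterol carrier of lysosomes, rose by 0.45 ± 0.054 (log2, SE; limma adjusted p = 6.92e-05), Tmem97, a membrane protein of sterol trafficking, by 0.41 ± 0.14 (adjusted p = 0.0320), and Gramd1c, of a family that carries cholesterol from the plasma membrane, fell (-0.86 ± 0.076). Of 11 fatty acid synthesis genes known as SREBP-1 targets, Srebf1 among them, 10 were higher and none lower. Their median difference was 1.27, against 0.37 for the 28 cholesterol genes, and Acacb (3.42), Scd (2.97) and Elovl6 (2.28) led. Controls 5 and 6 were the lowest controls together at 5 of these 11 genes, against 14 of the 18 cholesterol enzymes.

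Markers of other cells differed between the same livers. Of 10 measured bile duct markers, 9 were higher and none lower, with summed log2 levels of 70.2 to 75.8 in PCK livers and 64.2 to 64.9 in control livers. Tspan8, a bile duct surface protein, ran from 6.01 to 7.30 in PCK livers and from 5.24 to 5.30, near the bottom of the table, in control livers. Of 12 macrophage markers 11 were higher, of 9 stellate cell and fibroblast markers 7 were higher and 1 lower, and of 7 markers of dividing cells all 7 were higher. Control means of the dividing cell markers ran from 5.28 (Cdk1) to 5.67 (Cdc20), around the table's median of 5.66, so their differences are not exact in size. Some bile duct markers were as low in control livers, such as Cldn7 at 5.33. The sums ran from 106.1 to 112.5 in PCK and from 95.2 to 102.7 in control livers for macrophages, from 64.8 to 67.8 in PCK and from 58.1 to 61.6 in control livers for stellate cells, and from 42.1 to 44.3 in PCK and from 38.0 to 38.3 in control livers for dividing cells. Of 10 hepatocyte markers 1 was higher and 3 lower, with sums of 132.3 to 132.9 in PCK and 132.5 to 133.2 in control livers. Alb, one of the 10, held the table's highest value, 13.98, on all 12 arrays and so could not show a difference. Tf, at 13.85 to 13.88, and Ttr, at 13.67 to 13.79, lay close to that value on all arrays. The hepatocyte sums therefore say little about hepatocyte content. The part of these markers in the differences of the cholesterol genes, Soat1 and Lbr included, was not tested.

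Promoter windows were in the table for 23 of the 28 measured genes. The sterol regulatory element searched, TCACNCCAC on either strand, was in 0 of the 23 windows and in 1.12% of 33469 windows, which says only that these letters are not in these windows. The relaxed letters TCACNCCA, chosen after the windows were read, were in Srebf2 and Msmo1 and in 3.89% of all windows. TCACNCGA, chosen in the same way, was in Fdps alone and in 1.04% of all windows. The NF-Y box CCAAT was in 17 of the 23 and in 37.5% of all windows, and the Sp1 box GGGCGG in 18 of the 23 and 33.1%. Among genes higher in PCK livers, 9 of 13 windows held the NF-Y box and 12 of 13 the Sp1 box, and among those that did not pass, 7 and 6 of 9.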

How the data were processed

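Per the labels' protocols, liver RNA was extracted with Trizol, labelled with biotin as cRNA and measured on Affymetrix arrays. The authors deposited 1 table of log2 signals for 19239 probe sets on 12 arrays; the log2 scale is read from the values, which run from 5.14 to 13.98. Once sorted, the deposited columns of all 12 arrays hold the same values, as quantile normalization gives, so a difference in total RNA between livers would have been removed. How probes were summarised, and on which array, is not given in the sources used here, and there are no detection calls. Symbols came from the platform annotation, updated through the RefSeq gene table of GRCr8, and 2647 probe sets without a name entered 1 alternative only.

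All 16592 named genes were fitted with limma 3.58.1 in R 4.3.3 (lmFit, eBayes, 2-sided, no filter), adjusted by Benjamini-Hochberg over all of them at 0.05. SE is the moderated standard error. The fit was tested on simulated data. Groups and replicate numbers came from the sample titles. Over all named genes, same-numbered animals did not deviate together (correlations from -0.14 to 0.17), so the numbers were taken as names. This correlation was not computed for the enzymes alone. Averaged over the 18 enzymes, animals 1, 2 and 3 lay above their group's mean in both groups, and animals 5 and 6 below it. Number 4 was below it in PCK livers (-0.071) and above it in controls (0.26). Whether same-numbered animals shared a batch was not tested. Every member is named, and of each other list up to 3 called genes with the largest difference. The members and lists were chosen with earlier results of these data known. Alternatives varied the scaling, filter, probe sets, variance model, weights, replicate block, threshold and animals. The planned comparison of paralogous proteins was not run. Python 3.11.15 with matplotlib 3.10.9 drew the figures.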

Additional observations from a re-analysis of the deposited data

Results flagged for a closer look

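Among 56 groups of 6 values, 28 genes in 2 groups, 4 held an animal whose gap to its nearest neighbour exceeded 0.625 of the group's range, where chance gives about 1 in 20. Cyp51 in PCK 2 was high, at 12.1. Msmo1 in PCK 2 was high as well, at 11.49. Stard4 in control 6 was low, at 6.24, and Soat2 in PCK 4 was low, at 8.55. Without control 6 the rise of Stard4 was 0.56 and still passed the test.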

How the results depend on the processing

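All 18 calls among the 28 genes kept their direction and passed in each of the 21 other fits that tested them, and leaving out any 1 animal moved none of their differences by over 1.5 times. Without 1 animal the count of genes higher in PCK livers was 17 to 18, and the count lower was 1 in each. With a minimum of 1.5-fold 11 genes were higher, since smaller rises are not counted. At an adjusted p under 0.01, 14 were higher, without Acat2, Sqle and Ebp. With the replicate block 2 genes were lower, Sc5d (-0.10, adjusted p = 0.0465) having joined Insig2; the block changed no other call than those of Sc5d and Mbtps1 (0.10, adjusted p = 0.0117). Leaving out dim genes removed Ggps1, Soat1 and Mylip from the test. Of the 10 genes that did not pass, 5 changed sign in some setting. Lss was at -0.11 without control 6, at up to 0.36 in the other fits without 1 animal, and at -0.19 without controls 5 and 6, and Hsd17b7 at -0.089 in the last setting. Mbtps2 was at 0.015 with cyclic loess. Soat2 was at -0.0035 with array weights, at -0.017 without controls 5 and 6, and from -0.028 to 0.058 in the fits without 1 animal. Mylip was at 0.013 with cyclic loess, 0.0074 with array weights, 0.028 without controls 5 and 6, and from -0.019 to 0.0091 in the fits without 1 animal. The cause was not tested. By the exact permutation test, 2-sided and unadjusted, 17 of the 18 called genes had p = 0.00216, the smallest that 924 splits allow, and Ebp 0.00649.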
